A study of Mus musculus with 12 samples.

Results

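The tripartite motif (TRIM) family of ubiquitin ligases was examined in cultured mouse oligodendrocyte precursor cells (OPCs), the glial progenitors that give rise to myelinating oligodendrocytes. Members were taken as every gene symbol that starts with Trim and a number in both tables of values, with pseudogenes left out, which gave 67 of 45563 symbols. The sequenced RNA came from 12 libraries in 4 groups of 3: non-stimulated (NS) and cytokine-stimulated (St) OPCs of wild-type (WT) pups, and the same pair of conditions for pups lacking TNFR2, the second receptor for TNF. The labels give the strain of all mice as C57BL/6, and the TNFR2-/- deletion is described as germline, although reads on the targeted gene went against the label, as given below. Cortices of pups of postnatal days 2 to 5 by the sample labels (days 3 to 5 by the methods) were dissociated, and OPCs were pulled out with beads against PDGFRα and kept with PDGF-AA and FGF2 for 3 days. St cultures then received TNF, IFNγ and IL1β at 25 ng/mL each for 3 h, and NS cultures received PBS. The comparison between St and NS asks how OPCs respond to an inflammatory environment, and that between genotypes asks what the loss of TNFR2 changes.

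TRIM proteins share a RING finger, 1 or more B-box zinc fingers and a coiled coil, and most add a C-terminal domain that picks their targets. The RING finger recruits an E2 ubiquitin-conjugating enzyme and passes ubiquitin to the bound protein, which can mark it for the proteasome or, with other chain types, build a signaling platform. Members with a SPRY domain are known for antiviral and innate immune roles, and many of them are induced by interferons. Members with NHL or COS domains act largely in neurons and on the cytoskeleton, and those with a bromodomain regulate transcription.

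Values are given below as read pairs per library, recovered from the deposited FPKM (fragments scaled by gene length and library size), which were whole multiples of 1 read pair in each library. Library totals lay between 26886878 and 30335265 read pairs, and counts are listed in the order of cultures 2, 3 and 4 for WT and 2, 4 and 5 for TNFR2-/-. The replicate numbers stand for cultures, and where nothing states that these came from separate litters the p-values measure the spread between these cultures. The 7 OPC markers together held 4300 to 5370 CPM (read pairs scaled to library size, with each library total set to the same value) in the NS libraries and 3120 to 3900 in the St libraries, lower in every St library than in any NS library. Pdgfra, Cspg4, Olig1, Olig2 and Gpr17 fell in each culture, while Lhfpl3 moved in different directions between cultures. Sox10 rose in each, from 5902, 5188 and 6390 reads in WT NS to 7904, 10755 and 9242 in WT St. Its TNFR2-/- counts went from 6867, 6623 and 9999 to 8145, 10035 and 11166. The microglial markers Cx3cr1, Tmem119, Aif1, Itgam, Ptprc and C1qa had at most 6 reads each in a library, and P2ry12 had 16 to 46. The 5 astrocyte markers summed to 514 to 644 CPM in the WT libraries and to 806 to 1960 in those labeled TNFR2-/-, where culture 5 stood apart with 10491 (NS) and 10010 (St) reads of Gfap against 251 to 1926 in the other 10 libraries. Sums over the 5 neuronal markers were 96.3 to 124 in NS and 429 to 544 in St libraries, a rise carried by Tubb3 (1155 to 2146 against 11535 to 14263 reads). Mural and fibroblast markers summed to 254 to 869 CPM in WT NS and 322 to 789 in WT St. In TNFR2-/- they summed to 105 to 540 (NS) and 74 to 467 (St), with culture 5 lowest in both. Mature oligodendrocyte markers summed to 275 to 817 CPM over all libraries, and endothelial markers to at most 1.81. The part of these marker shifts in the cytokine results was not tested. Reads on Tnfrsf1b, the gene of TNFR2, went against the genotype label. They were 15, 12 and 24 in WT NS but 322, 346 and 213 in TNFR2-/- NS, and 145, 61 and 105 in WT St against 282, 356 and 290 in TNFR2-/- St. The genotype is therefore given below as the libraries were labeled.

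Short stretches of promoter are shown here because 7 of the 11 members that rose with cytokines carry the core of an interferon-stimulated response element (ISRE) near their start. The ISRE is the DNA element bound by the interferon-activated transcription factor complex and by interferon regulatory factors. Its core was searched on both strands as GAAA, any 2 bases, GAAA, which reads TTTC, any 2 bases, TTTC where the element lies on the other strand. Promoters of 300 bases (250 before to 50 after the start) came from RefSeq on GRCm38 and were found for 52 of the 67 members. The core was present in 1131 of 32851 promoters in all (3.44%), or for 3.99% of 27025 genes with any promoter listed. It was found for 9 members, and for all of these but Trim2 and Trim5 the gene was called upregulated in both genotypes. By response, 7 of the 11 upregulated members had a match, as did 0 of the 3 downregulated members with a promoter entry and 2 of 25 tested members called in neither direction. In the lines below the capitals mark the match, and each sequence runs 5′ to 3′ on the strand of its gene.
Trim21: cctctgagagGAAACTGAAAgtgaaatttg
Trim34a: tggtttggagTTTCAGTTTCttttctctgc
Trim12a: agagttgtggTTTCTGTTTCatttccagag
Trim5: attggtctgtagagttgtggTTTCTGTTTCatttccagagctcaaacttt
Trim12c: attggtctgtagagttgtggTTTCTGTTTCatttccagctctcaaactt
Trim30a: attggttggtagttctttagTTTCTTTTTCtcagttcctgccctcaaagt
Trim30d: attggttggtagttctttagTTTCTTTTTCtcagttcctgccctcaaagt
Trim26: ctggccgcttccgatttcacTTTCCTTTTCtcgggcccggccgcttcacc

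The stretch of Trim21 lies at chr7:102565450-102565479 on the minus strand of GRCm38, with its match 13 bases after the start and an overlapping second match 19 bases after it. That of Trim34a lies at chr7:104244457-104244486 on the plus strand, and that of Trim12a at chr7:104315466-104315495 on the minus strand, both with the match 10 bases after the start. The windows of Trim5 (chr7:104288126-104288175) and Trim12c (chr7:104353350-104353398) hold the same core as Trim12a, 49 and 29 bases before their starts. Trim30a (chr7:104465200-104465249) and Trim30d (chr7:104507861-104507910) have identical windows, with the match 36 and 41 bases before the start. All 4 of these lie on the minus strand. The stretch of Trim26 lies at chr17:36836972-36837021 on the plus strand, 154 bases before the start, with an overlapping second match 160 bases before it. Trim5, Trim12a and Trim12c are partly copies of each other, as are Trim30a and Trim30d, so the matches within these sets are not independent of one another. Trim25, Trim56, Trim47 and Trim7, the other 4 upregulated members, had no such match in these windows. The gamma-activated site TTCNNNGAA, the element of IFNγ signaling, was in 8.3% of promoters (9.55% of genes) and in 0 of the 11 upregulated members. The NF-kB consensus was in 8.46% of promoters (9.55% of genes) and in 1 of the 11 (Trim7).

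Most of the family was measurable in OPCs. Of the 67 members, 47 had reads in all 12 libraries, 12 had over 1000 reads in every library, and 3 (Trim42, Trim43b and Trim52) had 0 reads throughout. A mean of at least 0.1 FPKM was required for testing, which 50 members reached, and 17 did not, with 50 reads or fewer over the 12 libraries. Levels can be compared between genes only per length, and the FPKM as deposited do not allow this, since the number of bases each was divided by bears little relation to the annotated exons (60 bases for Trim56, whose exons cover 9281 bases). Limits set in FPKM, here and below, thus do not follow read number. Trim50, with 5 reads over the 12 libraries, was tested, and Trim43c, with 50, was not. On CPM per exonic kilobase, Trim28 was the highest member in WT NS, at 86.7 ± 1.51 (SD, n = 3). Trim28 encodes KAP1, the corepressor that zinc finger proteins recruit to silence retroelements. It was followed by Trim44 at 46.3 ± 1.05, a member without a RING finger, and then by Trim35 at 32.7 ± 0.58, Trim8 at 31.4 ± 1.8 and Trim32 at 30.5 ± 1.97. The last 3 did not differ beyond their spread. Trim9 (23.3 ± 1.66), Trim37 (20.8 ± 0.494) and Trim27 (17 ± 0.992) came next. Among innate immune members levels ranged widely, from Trim8 and Trim27 down to Trim30b, Trim34b and Trim38, which had 0 reads in WT NS. Between these lay Trim25 at 0.88 ± 0.121, Trim21 at 0.6 ± 0.0642 and Trim30a at 0.0709 ± 0.0457.

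Cytokine stimulation raised a group of innate immune TRIM genes within 3 h and lowered a smaller set in both genotypes. A member was called when its Benjamini-Hochberg adjusted p in limma, over all 18081 genes tested, was at most 0.05, its fold change at least 1.5 and its mean at least 1 FPKM. In WT OPCs 11 of 67 members were called higher and 6 lower in St than in NS, against 4.58% and 2.95% of all genes tested. In TNFR2-/- OPCs the counts were also 11 and 6, against 5.41% and 4.68% of all genes tested, and they were the same 11 and the same 6 members. As RNA was taken from whole cultures, a change in the share of a cell type and a change of RNA per cell cannot be told apart. The summed level of all 67 members stayed between 2129 and 2209 CPM in WT NS and 2190 and 2211 in WT St. Within that sum the 11 upregulated members went from 62.9 to 72.9 in WT NS to 260 to 281 in WT St, and from 72 to 93.8 to 313 to 481 in TNFR2-/-. The 6 downregulated members went from 207 to 210 to 121 to 132 in WT, and from 206 to 226 to 119 to 140 in TNFR2-/-. Median log2 fold changes over the 50 tested members were −0.051 in WT and −0.083 in TNFR2-/-, beside −0.055 and −0.109 for all genes tested.

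**Figure D1:**
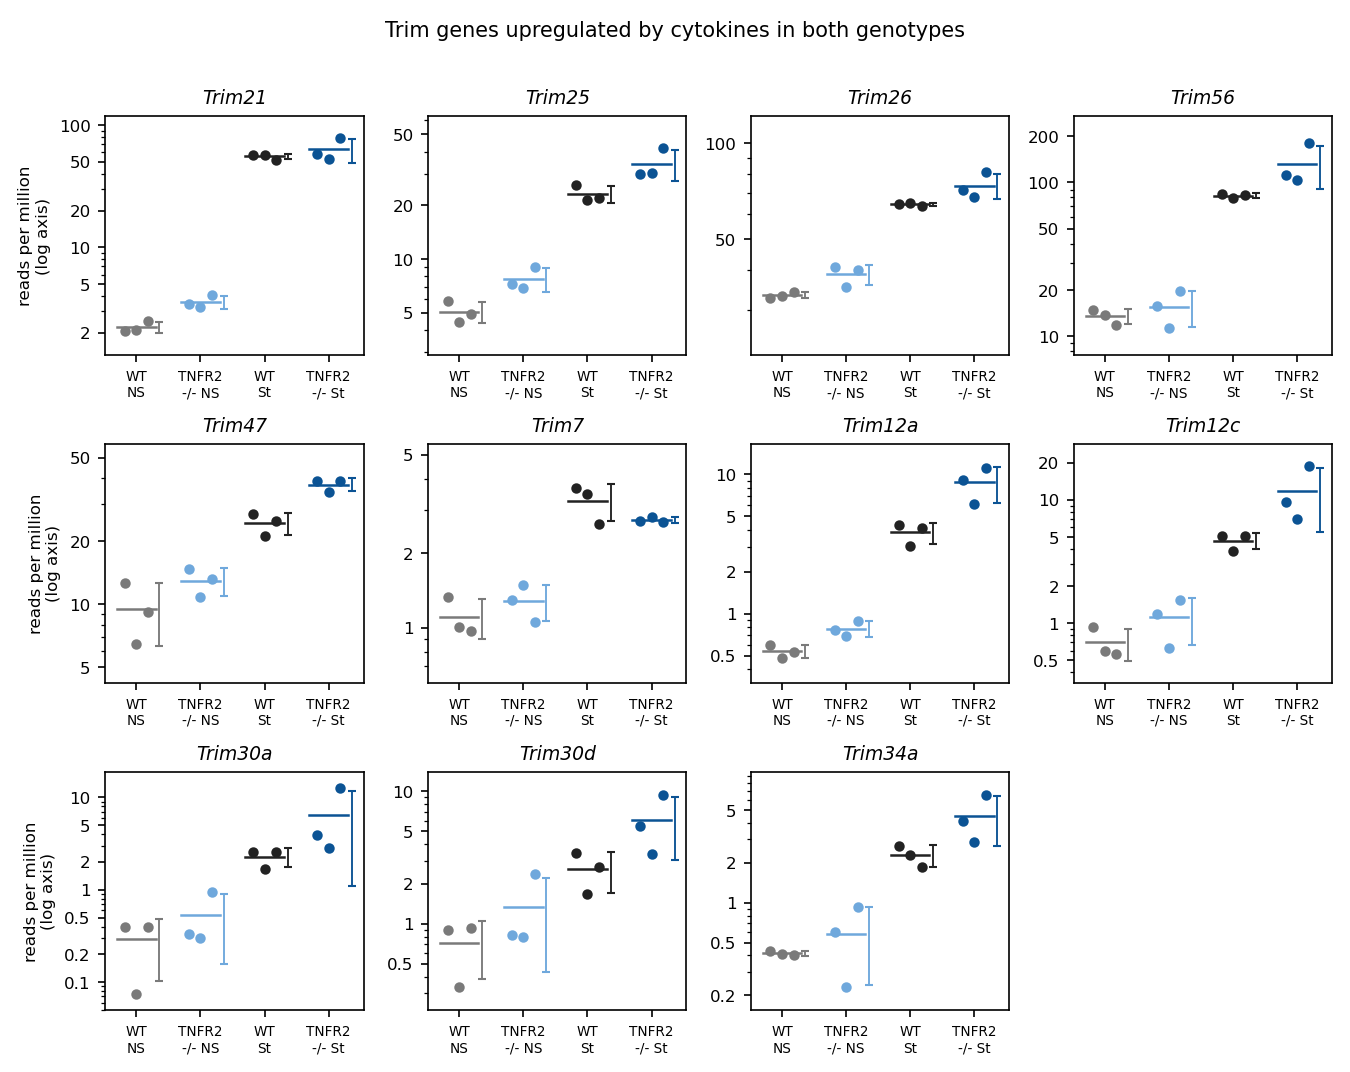
CPM (log axis) of the 11 upregulated members in each library of the 4 groups; points are libraries, horizontal lines are group means and bars at the right of each group are SD (n = 3). In every panel all St libraries lie above all NS libraries of the same genotype, and 9 of the 11 have TNFR2-/- St culture 5 as the highest TNFR2-/- St library.

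Trim21, the cytosolic antibody receptor that sends antibody-coated viruses to the proteasome, showed the largest response among the called members. It had 62, 57 and 75 reads in WT NS and 1721, 1710 and 1571 in WT St. In TNFR2-/- it had 104, 98 and 124 reads in NS and 1746, 1589 and 2262 in St. The groups were far apart, and the log2 fold change was 4.57 ± 0.143 (SE) in WT, adjusted p = 7.43e-09, and 4.08 ± 0.143 in TNFR2-/-, adjusted p = 1.66e-08, by limma. Among all 67 members its level per exonic kilobase moved from position 29 in WT NS to position 9 in WT St (14.9 ± 0.758, SD, n = 3). The gene (ENSMUSG00000030966) lies at chr7:102557921-102565486 on the minus strand.

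Trim25, the ligase that ubiquitinates the RNA sensor RIG-I, had 175, 120 and 147 reads in WT NS and 782, 645 and 664 in WT St. The TNFR2-/- libraries held 218, 209 and 274 reads in NS and 904, 916 and 1207 in St. Neither genotype showed overlap between NS and St, with log2 fold changes of 2.10 ± 0.155 and 2.07 ± 0.155 (SE). Trim56, which acts with the cGAS and STING DNA-sensing pathway, rose from 448, 371 and 358 reads to 2548, 2379 and 2490 in WT. In TNFR2-/- the counts were 471, 345 and 598 in NS and 3375, 3128 and 5161 in St, giving log2 fold changes of 2.60 ± 0.221 in WT and 3.07 ± 0.221 in TNFR2-/-. Per exonic kilobase Trim56 reached 8.86 ± 0.298 in WT St (SD, n = 3), above Trim25 at 4.03 ± 0.426 and below Trim21.

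Trim26, encoded in the MHC region of chromosome 17, had the smallest change of the 11 and the narrowest spread. Its counts were 986, 891 and 1028 in WT NS and 1937, 1953 and 1915 in WT St, and 1232, 1077 and 1213 in TNFR2-/- NS and 2145, 2052 and 2323 in TNFR2-/- St. The log2 fold changes were 0.94 ± 0.073 in WT and 0.91 ± 0.073 in TNFR2-/-, and the NS and St counts did not overlap. Trim47, a SPRY-domain member on chromosome 11, had 381, 174 and 276 reads in WT NS and 809, 638 and 753 in WT St. In TNFR2-/- it went from 443, 327 and 400 to 1167, 1036 and 1112 reads, and the log2 fold changes were 1.41 ± 0.207 and 1.54 ± 0.207. Trim7, which binds the glycogen primer glycogenin, was low, with 40, 27 and 29 reads in WT NS against 111, 104 and 79 in WT St. Its TNFR2-/- counts were 39, 45 and 32 in NS and 81, 85 and 77 in St, with log2 fold changes of 1.53 ± 0.161 in WT and 1.08 ± 0.161 in TNFR2-/-. An antisense gene shares 491 exonic bases with Trim7, and the sources used here do not say whether reads were counted by strand.

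**Figure D2:**
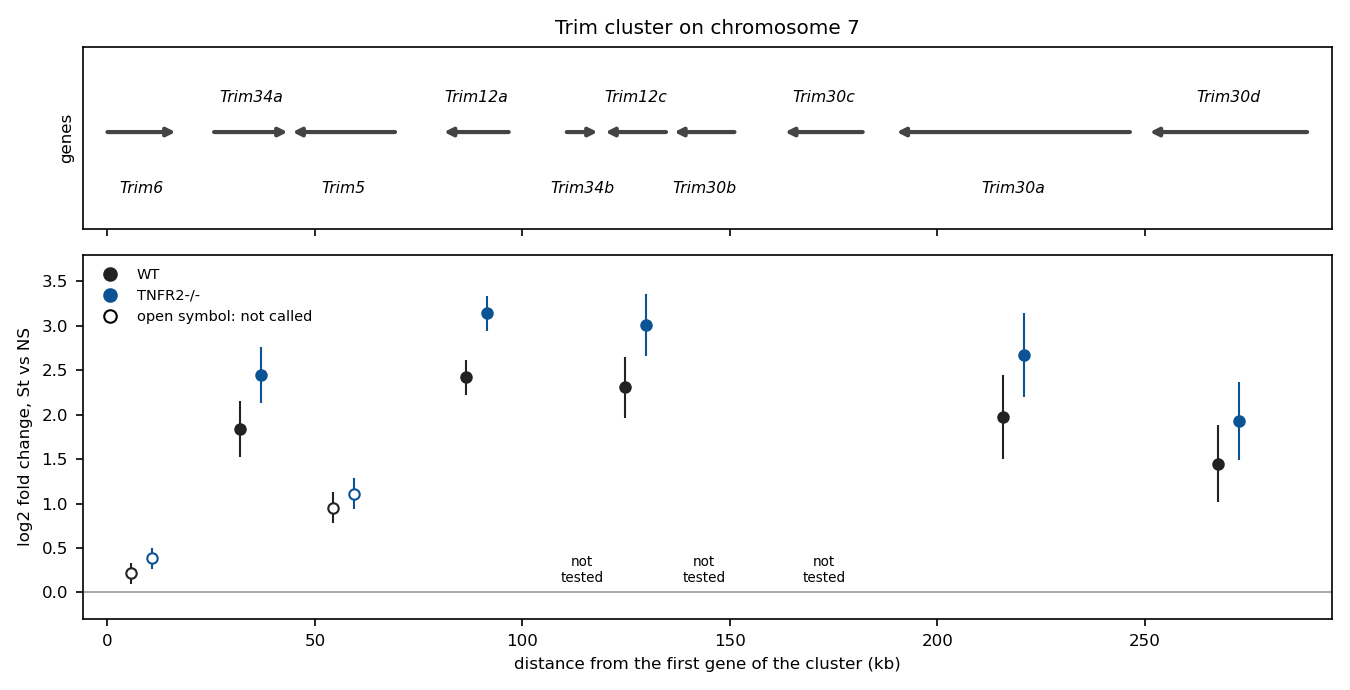
Upper panel: positions and directions of transcription (arrows) of the 10 Trim genes of the chromosome 7 cluster, in kb from the start of Trim6. Lower panel: log2 fold change of St over NS (± SE, n = 3 per group) for WT (black) and TNFR2-/- (blue) at the middle of each gene; filled symbols were called, and Trim34b, Trim30b and Trim30c were not tested. All 7 tested genes have positive fold changes, from 0.22 to 2.42 in WT and from 0.39 to 3.14 in TNFR2-/-.

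The other 5 upregulated members lie side by side on chromosome 7, in a run of 10 Trim genes that spans 289.1 kb (chr7:104218793-104507849). This cluster holds the mouse relatives of primate TRIM5, a capsid-binding factor that blocks retroviruses, and of TRIM6 and TRIM34, and it was delimited here after the values had been seen. Of its 10 genes 5 were called higher in each genotype, against 4.58% of all genes tested in WT and 5.41% in TNFR2-/-, and 0 lower. Of the 10, 7 were tested, with median log2 fold changes of 1.84 in WT and 2.45 in TNFR2-/- against −0.055 and −0.109 over all genes tested. Trim12a had 18, 13 and 16 reads in WT NS and 130, 92 and 123 in WT St, and 23, 21 and 27 in TNFR2-/- NS and 275, 184 and 316 in TNFR2-/- St. Its log2 fold changes were 2.42 ± 0.2 and 3.14 ± 0.2, the latter next to Trim21 in size among the called members. Trim12c rose from 28, 16 and 17 to 153, 116 and 152 reads in WT and from 36, 19 and 47 to 286, 211 and 544 in TNFR2-/-. The groups did not overlap, and the log2 fold changes were 2.31 ± 0.345 and 3.01 ± 0.345.

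Trim30a, known for dampening Toll-like receptor signaling through TAB2 and TAB3, had 12, 2 and 12 reads in WT NS and 78, 50 and 78 in WT St. It had 10, 9 and 29 in TNFR2-/- NS and 119, 85 and 363 in TNFR2-/- St, where culture 5 stood far above cultures 2 and 4. The log2 fold changes were 1.97 ± 0.472 in WT (adjusted p = 0.0165) and 2.68 ± 0.472 in TNFR2-/- (adjusted p = 0.00209). In WT the call was lost, at adjusted p = 0.0582, 0.0596 and 0.067 by limma, without WT St culture 2, WT St culture 4 or WT NS culture 3. Its neighbor Trim30d had 27, 9 and 28 reads in WT NS and 103, 50 and 81 in WT St, and 25, 24 and 72 in TNFR2-/- NS and 165, 101 and 268 in TNFR2-/- St. The log2 fold changes were 1.45 ± 0.435 (adjusted p = 0.0464) and 1.93 ± 0.435 (adjusted p = 0.00838). The WT call of Trim30d was the least firm of the 11, with an adjusted p of 0.0516 to 0.162 by limma when any WT library other than WT St culture 3, or TNFR2-/- NS culture 2 or 4 or TNFR2-/- St culture 2, was left out. Trim34a had 13, 11 and 12 reads in WT NS and 81, 69 and 56 in WT St. In TNFR2-/- it had 18, 7 and 28 in NS and 124, 87 and 186 in St, with log2 fold changes of 1.84 ± 0.313 and 2.45 ± 0.313. These paralogs share sequence, so reads could be split between them in ways the counting decides: 39 percent of the distinct 100-base stretches of Trim34a occur in another gene (21 percent in Trim34b), 8.1 percent of those of Trim12c, 4.6 percent of Trim30d, 4.4 percent of Trim30a and 3.3 percent of Trim12a.

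Of the remaining cluster members, Trim5 had 1, 1 and 2 reads in WT NS and 7, 7 and 11 in WT St, and 2, 4 and 3 against 12, 10 and 18 in TNFR2-/-. The ratio of summed reads, scaled by library totals, was 6.02 in WT (95% exact binomial interval 2.08 to 23.8) and 4.53 in TNFR2-/- (2.16 to 10.6), where the intervals cover counting error only. The adjusted p of Trim5 was 0.00374 in WT and 0.00106 in TNFR2-/- by limma, but its mean was under 1 FPKM. Trim6, which builds free ubiquitin chains that activate the kinase IKKε, had 5, 1 and 4 reads in WT NS and 6, 4 and 8 in WT St, and 2, 1 and 1 against 7, 5 and 5 in TNFR2-/-. The second of these passed on adjusted p (0.0348) at a ratio of 4.33 (1.41 to 17.7), and the first did not (0.279), at 1.73 (0.759 to 4.2). Trim30b, Trim30c and Trim34b were below the limit for testing, and Trim30b and Trim30c had their highest counts, 11 and 12 reads, in TNFR2-/- St culture 5.

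Some members passed on p but were left uncalled by the fold limit, the level condition or both. With adjusted p alone, 22 members passed in WT (16.1% of all genes tested) and 27 in TNFR2-/- (26%). Trim69, an interferon-inducible member that binds microtubules and restricts vesicular stomatitis virus, was the clearest case. It had 1, 6 and 1 reads in WT NS and 45, 69 and 55 in WT St, and 1, 3 and 2 in TNFR2-/- NS against 32, 32 and 47 in TNFR2-/- St. The groups were far apart, at ratios of summed reads of 20.3 in WT (10.1 to 47.9) and 18.9 in TNFR2-/- (8.4 to 52.5). The adjusted p was 0.00016 in WT and 0.000944 in TNFR2-/- by limma, and the mean was under 1 FPKM. That limit depends on the number of bases behind each FPKM. Trim69, with 294 reads over the 12 libraries, was under it, while Trim29, with 37, was not. On voom, a fit to the recovered reads, the log2 fold changes of Trim69 were 4.49 in WT and 3.99 in TNFR2-/-, against 0.98 and 0.73 on the log2(FPKM + 0.5) scale. Trim15, a focal adhesion protein encoded next to Trim26, had 9, 9 and 6 reads in WT NS and 29, 29 and 27 in WT St. It had 5, 8 and 14 reads in TNFR2-/- NS and 41, 29 and 55 in TNFR2-/- St, with adjusted p = 0.0285 and 0.00228 by limma. Without the level condition, an alternative added after the data were seen, 13 members were higher in WT and 14 in TNFR2-/-.

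**Figure D3:**
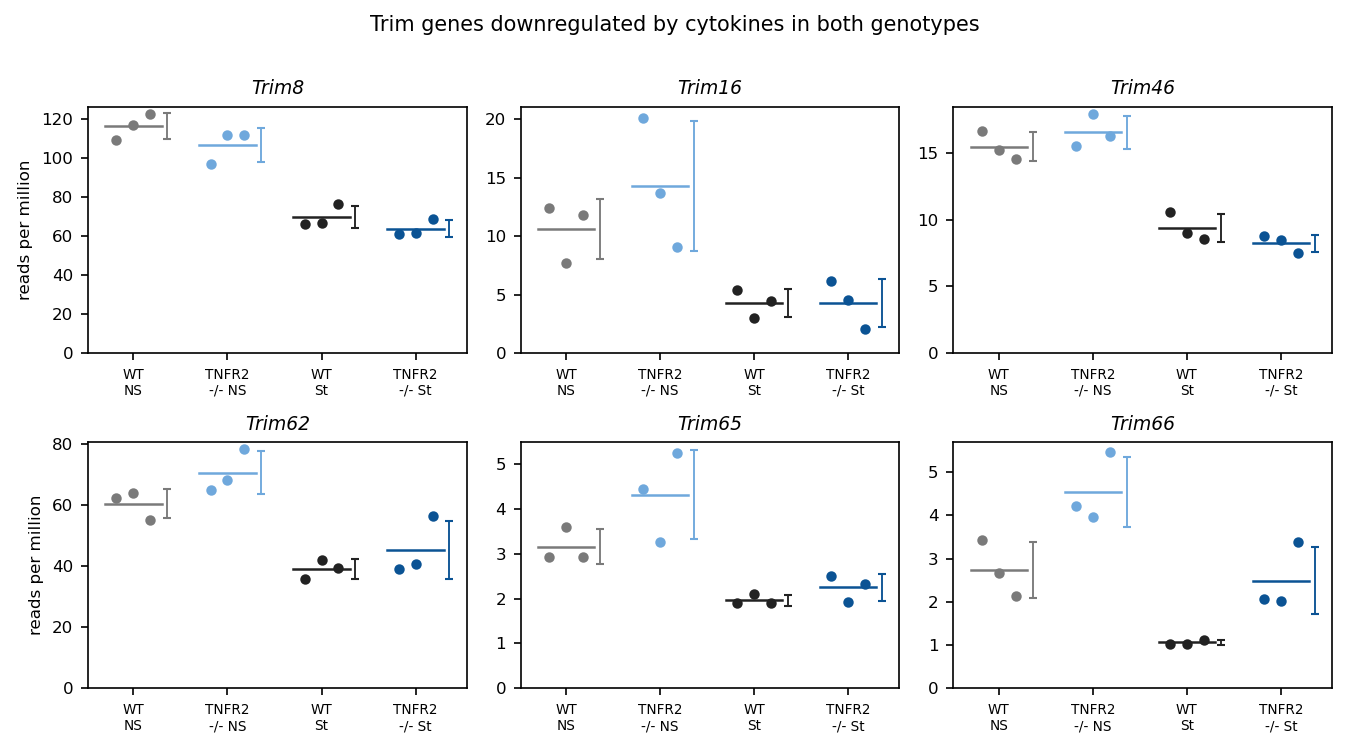
CPM of the 6 downregulated members in each library of the 4 groups; points are libraries, horizontal lines are group means and bars at the right of each group are SD (n = 3). In all 6 panels the NS libraries lie above the St libraries of the same genotype.

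The 6 members that fell were a mixed group, and their changes were smaller than those of most upregulated members. Trim8, a ligase first described through its binding to SOCS1, the brake on IFNγ signaling, was the most abundant of them. It had 3282, 3148 and 3673 reads in WT NS and 1988, 2002 and 2300 in WT St, and 2913, 3384 and 3385 in TNFR2-/- NS against 1836, 1859 and 1973 in TNFR2-/- St. The log2 fold change was −0.74 ± 0.083 in each genotype. Trim46, which organizes parallel microtubules at the start of the axon, had 500, 410 and 437 reads in WT NS and 318, 270 and 258 in WT St. In TNFR2-/- it fell from 467, 543 and 493 to 263, 256 and 216 reads, and the log2 fold changes were −0.64 ± 0.103 and −0.88 ± 0.103. Trim62, a regulator of epithelial polarity, had 1874, 1721 and 1657 reads in WT NS and 1077, 1263 and 1189 in WT St, and 1962, 2066 and 2383 in TNFR2-/- NS against 1174, 1235 and 1619 in TNFR2-/- St. Its log2 fold changes were −0.62 ± 0.134 and −0.64 ± 0.134, and the groups did not overlap in either genotype. Both lay near the fold limit (0.585), and the WT value was −0.58 and −0.56 without WT NS culture 3 or WT St culture 2, which ended the call. The TNFR2-/- value was −0.56, −0.55 and −0.58 without TNFR2-/- NS culture 5 or TNFR2-/- St culture 2 or 4, also under the limit.

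Trim65, which ubiquitinates the RNA sensor MDA5, was the second innate immune member that fell. It had 88, 97 and 88 reads in WT NS and 57, 63 and 57 in WT St, and 134, 99 and 159 in TNFR2-/- NS against 75, 58 and 67 in TNFR2-/- St. The log2 fold changes were −0.64 ± 0.162 (adjusted p = 0.0221) and −0.87 ± 0.162 (adjusted p = 0.00282), and in WT the call was lost at adjusted p = 0.0719, 0.074 and 0.0866 by limma without WT St culture 2, WT St culture 4 or WT NS culture 3. Trim65 lies next to Trim47 on the same strand of chromosome 11 and shares 225 exonic bases with it, yet Trim47 rose while Trim65 fell. Trim66, a bromodomain member, had 103, 72 and 64 reads in WT NS and 31, 31 and 34 in WT St, and 127, 120 and 166 in TNFR2-/- NS against 62, 61 and 97 in TNFR2-/- St. Its log2 fold changes were −0.93 ± 0.186 and −0.73 ± 0.186, the second of which no longer passed by limma (adjusted p = 0.0546 to 0.0602) without TNFR2-/- NS culture 5, TNFR2-/- St culture 2 or TNFR2-/- St culture 4.

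Trim16, a member without a RING finger that acts with galectins in the removal of damaged lysosomes, had the largest fall and the widest spread. It had 373, 207 and 354 reads in WT NS and 162, 91 and 133 in WT St, and 606, 414 and 276 in TNFR2-/- NS against 184, 138 and 59 in TNFR2-/- St. The log2 fold changes were −1.06 ± 0.323 (adjusted p = 0.0489) and −1.46 ± 0.323 (adjusted p = 0.00766). In WT the call was near the threshold, and by limma the adjusted p was 0.0507 to 0.157 without any 1 of the 6 WT libraries, TNFR2-/- NS culture 4 or TNFR2-/- St culture 4. It was also 0.0654 after median-of-ratios scaling of the libraries, a setting under which 11 members were called higher and 3 lower in WT, with Trim62 (−0.56) and Trim65 (−0.58) just under the fold limit.

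**Figure D4:**
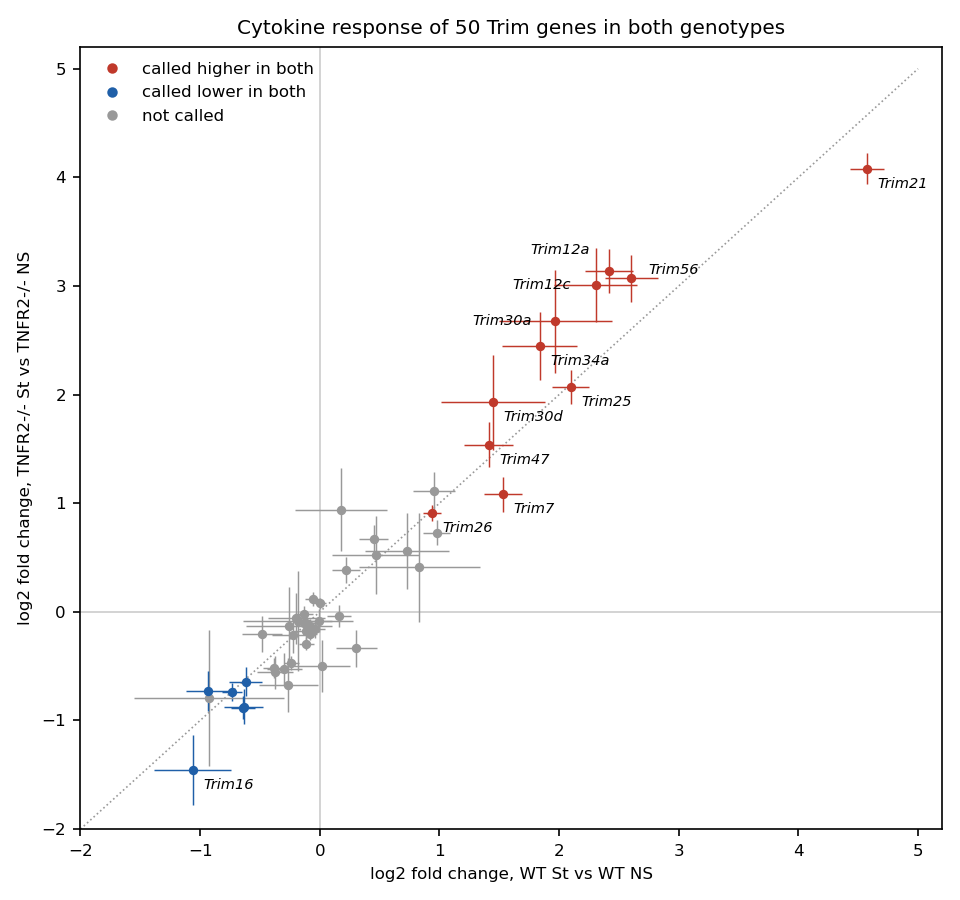
Log2 fold change of St over NS in WT (horizontal axis) and TNFR2-/- (vertical axis) for the 50 tested members, with SE as bars; red points were called higher in both genotypes, blue points lower in both, and the dotted line marks equal response. The 11 upregulated members spread from 0.94 (Trim26) to 4.57 (Trim21) in WT and from 0.91 to 4.08 in TNFR2-/-, and the 6 downregulated ones end at Trim16.

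By role, the 21 innate immune members on a list of antiviral and signaling ligases accounted for 10 of the 11 rises and 2 of the 6 falls in each genotype (all but Trim7, and Trim8 and Trim65). Of all genes tested, 4.58% were called higher and 2.95% lower in WT, and 5.41% and 4.68% in TNFR2-/-. The list was chosen with earlier results of these data known. Over the 17 listed members that were tested the median log2 fold change was 1.41 in WT and 1.54 in TNFR2-/-, beside −0.055 and −0.109 for all genes tested. Those called in neither direction included Trim27, at −0.08 ± 0.065 in WT and −0.13 ± 0.065 in TNFR2-/-, and Trim13, an endoplasmic reticulum ligase, at −0.48 ± 0.166 and −0.20 ± 0.166. Trim38, which targets TAB2 and TAB3, had at most 4 reads in a library, and its log2 fold changes were 0.83 ± 0.506 and 0.41 ± 0.506. Trim14, a RING-less partner of MAVS that shares 1356 exonic bases with Nans on the opposite strand, had at most 11 reads and was not tested. Of the 11 members with NHL or COS domains, 8 were tested, 0 rose and 1 (Trim46) was called lower in each genotype, against 2.95% of all genes tested called lower in WT and 4.68% in TNFR2-/-. These had log2 fold changes of the list between −0.64 and 0.31 in WT and between −0.88 and −0.04 in TNFR2-/-. Among them Trim3, a brain NHL ligase, passed on adjusted p under the 1.5-fold limit, with 1544, 1417 and 1691 reads in WT NS and 1322, 1364 and 1400 in WT St. In TNFR2-/- Trim3 had 1473, 1710 and 1614 reads in NS and 1106, 1207 and 1076 in St, for log2 fold changes of −0.24 ± 0.064 and −0.47 ± 0.064. Trim9, a brain ligase of netrin signaling, had 9166 to 13463 reads in all libraries, at 0.16 ± 0.102 and −0.04 ± 0.102.

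Of the 4 bromodomain members, transcriptional regulators of the TIF1 family, only Trim66 was called. Trim24 had log2 fold changes of −0.13 ± 0.072 in WT and −0.02 ± 0.072 in TNFR2-/-, and Trim33 of −0.06 ± 0.063 and 0.12 ± 0.063. Trim28 had 10641, 9686 and 10996 reads in WT NS and 9865, 9928 and 10275 in WT St, with a log2 fold change of −0.11 ± 0.061. In TNFR2-/- it had 9668, 10809 and 9844 reads in NS and 8428, 8638 and 7250 in St, at −0.29 ± 0.061 and adjusted p = 0.00546 by limma, below the fold limit. Trim35, another of the abundant members, also passed on p alone in both genotypes, at −0.38 ± 0.094 and −0.52 ± 0.094.

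The replicate numbers paired the NS and St libraries of 1 culture within a genotype, and a fit with that replicate block added 2 calls in TNFR2-/-. Trim72, a muscle membrane-repair ligase, had 3, 12 and 2 reads in TNFR2-/- NS and 9, 14 and 9 in TNFR2-/- St, which gave 0.94 on the log2 scale, with adjusted p = 0.0998 without and 0.0191 with the block in limma. Trim68 had 179, 112 and 185 reads in TNFR2-/- NS and 102, 65 and 117 in TNFR2-/- St, which gave −0.67, with adjusted p = 0.0726 without and 0.000637 with the block. Each of the 3 TNFR2-/- cultures moved the same way for both genes, while the groups overlapped.

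Differences between the genotypes were fewer and less firm than the cytokine response. In NS, 1 member was called higher in TNFR2-/- than in WT and 0 lower, against 1.62% and 1.28% of all genes tested, and 3 members passed on adjusted p alone (10.9%). The called gene was Trim21, with 104, 98 and 124 reads in libraries labeled TNFR2-/- against 62, 57 and 75 in WT. The groups did not overlap, and the log2 fold change was 0.66 ± 0.143 (adjusted p = 0.0239). The size of the difference held at 0.57 to 0.74 when single NS libraries were left out, but the call was lost with several of them. By limma the adjusted p was 0.0501, 0.0946 and 0.0625 without WT NS culture 2, 3 or 4, and 0.055 and 0.0792 without TNFR2-/- NS culture 2 or 5. It was 0.0848 in a fit over the 6 NS libraries and 0.151 in voom. Without both TNFR2-/- culture 5 libraries it was 0.0296, at a log2 fold change of 0.57 that was under the fold limit. Trim25 was at 0.57 ± 0.155 (adjusted p = 0.0443), just under the fold limit, with 218, 209 and 274 against 175, 120 and 147 reads. Trim67, a brain member related to Trim9, was lower in libraries labeled TNFR2-/-, with 389, 452 and 390 reads against 563, 479 and 514, a log2 fold change of −0.39 ± 0.104 and adjusted p = 0.0392, also under the fold limit.

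After stimulation, 2 members were called higher in TNFR2-/- St than in WT St and 0 lower, against 1.18% and 0.614% of all genes tested, and 4 passed on adjusted p alone (5.45%). Trim12a had 275, 184 and 316 reads in TNFR2-/- St and 130, 92 and 123 in WT St, a log2 fold change of 1.12 ± 0.2 (adjusted p = 0.0197). Trim66 had 62, 61 and 97 against 31, 31 and 34 reads, at 0.81 ± 0.186 (adjusted p = 0.0388). Neither pair of groups overlapped, and without single libraries the log2 fold changes stayed between 0.94 and 1.36 for Trim12a and between 0.62 and 0.91 for Trim66, but both calls were lost with several of them. For Trim12a the adjusted p by limma was 0.0828 and 0.0694 without WT St culture 3 or 4, and 0.0572 and 0.0648 without TNFR2-/- St culture 2 or 5. For Trim66 it was 0.0786, 0.126 and 0.108 without WT St culture 2, 3 or 4, 0.065 and 0.115 without TNFR2-/- St culture 2 or 5, and 0.0537 and 0.0528 without WT NS culture 3 or TNFR2-/- NS culture 2. With both libraries of TNFR2-/- culture 5 left out, as an alternative added after the data were seen, the log2 fold changes were 0.94 (adjusted p = 0.0533) for Trim12a and 0.62 (adjusted p = 0.0666) for Trim66. The astrocyte markers, highest in that culture, moved with the genotype label, and the mural and fibroblast markers were lowest in that culture. The part of either in these differences was not tested. Trim67 was again lower in libraries labeled TNFR2-/-, with 313, 401 and 353 against 535, 514 and 446 reads (−0.46 ± 0.104, adjusted p = 0.0376), and so was Trim28 (−0.29 ± 0.061, adjusted p = 0.0309), both under the fold limit.

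**Figure D5:**
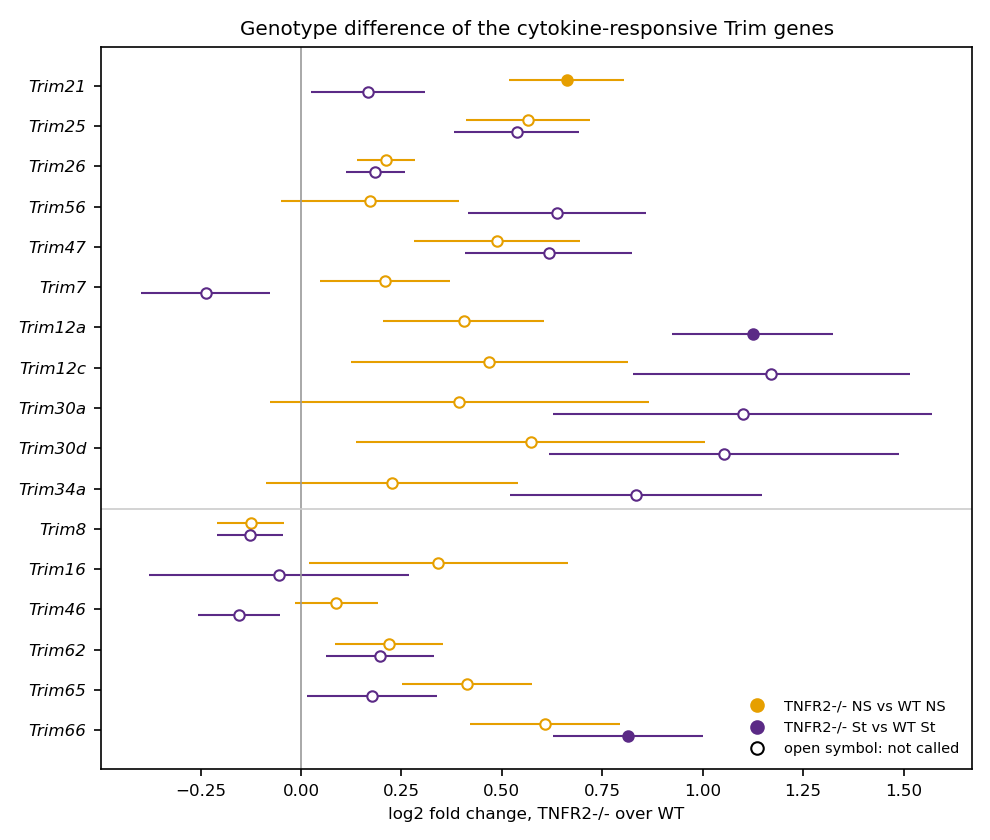
Log2 fold change of TNFR2-/- over WT (± SE, n = 3 per group) in NS (orange) and St (purple) for the 11 upregulated members, above the gray line, and the 6 downregulated members, below it; filled symbols were called. Only Trim21 in NS and Trim12a and Trim66 in St are filled, and in St the values of the upregulated members run from −0.24 (Trim7) to 1.17 (Trim12c).

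Taking the 11 upregulated members, every TNFR2-/- St library was above every WT St library for 8 of them, against 15.4% of all genes tested. In NS, the same was true of 4 of them against 19.9% of all genes tested. Trim12c (1.17 ± 0.345), Trim30a (1.10 ± 0.472) and Trim30d (1.05 ± 0.435) had fold changes of a size with Trim12a in St, but their adjusted p was 0.0692, 0.169 and 0.157 by limma. Trim47 (0.62 ± 0.207, adjusted p = 0.0962) and Trim56 (0.64 ± 0.221, adjusted p = 0.103) did not pass either, though Trim47 did in voom (adjusted p = 0.0345). In 9 of these 11 members TNFR2-/- St culture 5 was the highest TNFR2-/- St library, which held for 42.3% of all genes past the filter, and for Trim30a, Trim56 and Trim12c its count was well above those of cultures 2 and 4.

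The response itself was compared between genotypes as the interaction of genotype and stimulation. No member was called in limma (0 of 67, against 0.00553% of all genes tested), and 0 passed in voom. At an unadjusted p under 0.05 there were 4 members, and the smallest adjusted p was 0.563. These were Trim36 (−0.64 ± 0.241), Trim12a (0.72 ± 0.283), Trim3 (−0.23 ± 0.091) and Trim21 (−0.49 ± 0.202), where a positive value means a more positive change in TNFR2-/-. In the fit with the replicate block within genotype, 16 members had an unadjusted p under 0.05 and the smallest adjusted p was 0.102. The share of all genes tested under that unadjusted limit was not taken for either fit. Neither count is therefore read as particular to the family. With 3 cultures per group no difference in response was detected for a member.

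Enzymes and sensors that TRIM ligases work with were measured in the same libraries, as a list of 25 genes that were all tested. In each genotype 6 of the 25 were called higher with cytokines, against 4.58% of all genes tested in WT and 5.41% in TNFR2-/-, and 0 lower. Ube2l6, the E2 enzyme of the ubiquitin-like modifier ISG15, had 203, 174 and 213 reads in WT NS and 916, 848 and 872 in WT St, with log2 fold changes of 1.83 ± 0.098 in WT and 1.73 ± 0.098 in TNFR2-/-. Ddx58, which encodes RIG-I, the target of Trim25, had 297, 230 and 258 reads in WT NS and 2053, 1733 and 1893 in WT St, at 2.77 ± 0.15 and 2.78 ± 0.15. Ifih1, which encodes MDA5, the target of Trim65, was at 1.33 ± 0.2 and 1.51 ± 0.2, opposite in direction to Trim65. Tmem173, which encodes STING, was at 1.40 ± 0.14 and 1.30 ± 0.14, and the kinase gene Tbk1 at 0.66 ± 0.079 and 0.79 ± 0.079. Irf7, an interferon regulatory factor, had 15, 14 and 22 reads in WT NS, 124, 96 and 135 in WT St, 19, 15 and 13 in TNFR2-/- NS and 207, 169 and 287 in TNFR2-/- St. It was the only gene of the list called between genotypes, at 0.87 ± 0.214 in St (adjusted p = 0.0458 by limma), against 1.18% of all genes tested called higher. TNFR2-/- St culture 5 was its highest library, and the call was not repeated with libraries left out. Of the other 11 E2 enzymes and cofactors on the list 0 were called, such as Ube2d3 (0.27 ± 0.045 and 0.31 ± 0.045) and Ube2n, the E2 of chains that signal without degradation (−0.04 ± 0.046 in WT and −0.14 ± 0.046 in TNFR2-/-).

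Of 4 genes related to the TRIM family but with other symbols, 3 were tested and Mefv had 0 reads throughout. Pml, the organizer of nuclear bodies, had 370, 243 and 334 reads in WT NS and 689, 625 and 717 in WT St, and 459, 410 and 524 in TNFR2-/- NS against 998, 882 and 1253 in TNFR2-/- St. Its log2 fold changes were 1.06 ± 0.156 and 1.19 ± 0.156, and it was higher in TNFR2-/- St than in WT St by 0.63 ± 0.156 (adjusted p = 0.0458). Mid2, a microtubule-associated COS-domain ligase, fell in both genotypes (−0.81 ± 0.154 and −0.77 ± 0.154). Its relative Mid1 was called only between genotypes in St, with 528, 543 and 476 reads in TNFR2-/- and 324, 186 and 215 in WT (1.09 ± 0.245, adjusted p = 0.0364 by limma). Of all genes tested, 1.18% were called higher in TNFR2-/- St than in WT St. The calls of Pml and Mid1 between genotypes were not repeated with libraries left out.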

How the data were processed

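Adapter and quality trimming by the authors used Trim Galore, STAR served for alignment on GRCm38 and for gene counts, and edgeR made their own comparisons, none of which were used here; the submitters' processing notes name the same tools. The authors deposited FPKM per symbol, in 1 table for NS and 1 for St, each with 45792 entries. From 26886878 to 30335265 read pairs stood behind a library. The methods name a BGISeq platform, while the labels name Illumina protocols.

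Symbols used more than once (99) were left out. Whole reads were recovered for 26636 of 26636 genes above 0 in at least 2 libraries, within 0.02 reads. Tests covered the 18081 genes averaging 0.1 FPKM or more, as log2(FPKM + 0.5) in limma 3.58.1 (R 4.3.3), with 4 group means, empirical Bayes moderation, a mean-dependent prior and Benjamini-Hochberg adjustment over all genes tested. FPKM makes a count model unsuitable as the main test, and the pseudocount understates changes of genes with low FPKM. Called members needed an adjusted p of at most 0.05, a 1.5-fold change and a mean of 1 FPKM. Alternatives varied the pseudocount, filter, scaling, thresholds, libraries and block, and voom was fitted to the recovered reads; dropping the level condition, a level condition of 2 CPM and leaving out culture 5 were added after the data were seen. An exact permutation test of 3 against 3 cannot give a two-sided p under 0.1, so none is reported. After group means were removed, libraries with the same number within a genotype correlated at 0.34 to 0.65 (6 pairs over 13554 genes) and those with other numbers at −0.45 to 0.09. The procedure was tested on simulated data.

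Values in every library are given for called members, fold changes for the innate immune and bromodomain members, and counts for the other lists. Members and lists were chosen with earlier results of these data known. Values of Trim69, Trim5, Trim15, Trim3, Trim28, Trim67, Trim68 and Trim72 by library, and the chromosome 7 cluster, were chosen after their values were seen. Identifiers, exon lengths and sequences shared over 100 bases came from GENCODE M21, and promoters from RefSeq, both on GRCm38. Members without a promoter entry were not searched. Figures were drawn with matplotlib 3.10.9 in Python 3.11.15.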

Additional observations from a re-analysis of the deposited data

Results flagged for a closer look

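In 2 of the 50 tested members every WT culture moved one way with cytokines and every TNFR2-/- culture the other. The share of all genes tested with such opposite changes was not taken, so the count is not read as particular to the family. For Trim33 the change in log2(FPKM + 0.5) was −0.0421, −0.0309 and −0.1091 in WT cultures 2, 3 and 4 and 0.118, 0.1474 and 0.0891 in TNFR2-/- cultures 2, 4 and 5. The interaction was 0.18 ± 0.089 (SE), with an adjusted p of 0.657 in limma. For Trim36 the changes were 0.2836, 0.494 and 0.1426 in WT and −0.2967, −0.1772 and −0.5359 in TNFR2-/-. Its interaction was −0.64 ± 0.241, with an adjusted p of 0.563. Neither difference passed the test of the interaction itself, and Trim36 had only 42 to 90 reads per library.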

How the results depend on the processing

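No called change of a member turned direction in 885 alternatives for 37 gene results, and 26 of the results stayed called in all of theirs. Of these alternatives 68 ended a call, 57 by adjusted p and 11 by the fold limit alone. Changes of the fold threshold or the level condition were not among the 885 and were followed only as counts of calls. For the cytokine response the calls numbered 17 in each genotype and stayed within 1.5 times that, at 12 to 17 in WT and 15 to 20 in TNFR2-/- when single libraries were left out, except that a 2-fold threshold left 11 in each. In NS the 1 genotype call became 2 with a pseudocount of 0.1 FPKM, 3 with no fold change threshold, 0 at a 2-fold threshold, 0 in a fit over the 6 libraries compared, 0 to 5 when single libraries were left out (0 without WT NS 3 or 4 or TNFR2-/- NS 2 or 5, 3 without WT NS 2, 5 without TNFR2-/- NS 4, 2 without TNFR2-/- St 5), and 0 without both TNFR2-/- culture 5 libraries. In St the 2 genotype calls became 1 with no filter on low values, 0 over the 6 libraries compared, 4 with no fold change threshold, 1 at a 2-fold threshold, 0 to 3 when single libraries were left out (1 without WT NS 3, TNFR2-/- NS 2 or WT St 2, 0 without WT St 3 or 4 or TNFR2-/- St 2 or 5), and 0 without culture 5. With the replicate block the counts were 17 in WT, 19 in TNFR2-/-, 1 and 3 between genotypes in NS and St, and 0 for the interaction. In NS it ended the call of Trim21 (0.52, adjusted p = 0.0166, under the fold limit) and added Trim68 (0.61, adjusted p = 0.0139), and in St it added Trim12c (0.77, adjusted p = 0.0285). It ended no call of the cytokine response. The genotype contrasts of this fit tie equal numbers across genotypes, and number 3 occurs only in WT and number 5 only in TNFR2-/-. The level between genotypes therefore rests there on cultures 2 and 4. Numbers did not pair cultures across genotypes (r of −0.06 to 0.2 over 4 pairs). The genotype calls lost or added by the block are therefore not read as results. Depth limits members with few reads, such as Trim5, Trim6 and Trim69 in NS, whose counting intervals are wide. The cause of the other shifts was not tested.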
